A study of Mus musculus with 2 samples.

Results

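The microRNA genes Mir532, Mir188, Mir362, Mir501, Mir500 and Mir660 are known as a cluster of hairpins within Clcn5 on the X chromosome of the mouse. They were picked by gene symbol, not by their level. In the GENCODE M21 annotation used here, 5 of the 6 named genes lie in introns of Clcn5 and matched one of the 1973 microRNA genes in the count tables. No gene under the symbol Mir660 was found in that annotation, and it was not analysed here. The data are microRNA sequencing libraries, made from total RNA with inserts shorter than 30 bases, from whole livers of 2 newborn pups of strain B6NCrl at postnatal day 0. Pup 1 gave replicate 1 and pup 2 gave replicate 2. The pups are litter mates, no treatment or genetic change is named in the labels, and their sex was not collected. The libraries form 1 group of 2 animals, so the levels are described with their spread and the only comparison possible is between the pups.

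Clcn5 encodes a chloride/proton exchanger of endosomes that is best known from the kidney, where its loss causes Dent disease. An intronic microRNA is cut as a hairpin from the primary transcript by Drosha and trimmed by Dicer to a mature strand from its 5p or 3p arm, and bases 2 to 8 of that strand, the seed, lead Argonaute to target messages. Neighbouring hairpins can be cut from a single primary transcript and still reach unlike levels, since cutting, loading and decay differ between them. In human liver, miR-500 has been described as an oncofetal microRNA that is raised in some hepatocellular carcinomas.

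The hairpins show how alike the genes are and where the listed mature arms lie in them. All 5 matched an entry of RefSeq (build GRCm38.p6, the assembly also called mm10). They lie on the minus strand, and the capitals mark the mature arms listed there, 5′ to 3′.
Mir532, chrX:7248402-7248497: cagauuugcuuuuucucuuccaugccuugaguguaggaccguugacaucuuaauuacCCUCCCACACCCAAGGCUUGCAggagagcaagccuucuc
Mir188, chrX:7247989-7248056: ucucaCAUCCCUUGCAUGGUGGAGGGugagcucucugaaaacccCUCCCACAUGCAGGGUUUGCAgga
Mir362, chrX:7241982-7242046: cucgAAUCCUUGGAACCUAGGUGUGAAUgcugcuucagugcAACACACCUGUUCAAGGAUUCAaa
Mir501, chrX:7241243-7241351: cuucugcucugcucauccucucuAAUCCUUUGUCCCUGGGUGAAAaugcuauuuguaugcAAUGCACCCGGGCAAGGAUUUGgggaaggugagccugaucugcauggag
Mir500, chrX:7237683-7237774: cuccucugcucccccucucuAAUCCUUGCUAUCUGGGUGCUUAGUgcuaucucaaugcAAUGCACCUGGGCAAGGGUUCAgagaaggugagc

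The mature arms are shown next with the seed in capitals, because the seeds set which genes could share targets. RefSeq held 9 mature arms of these genes, and miR-532-5p had no entry.
mmu-miR-532-3p: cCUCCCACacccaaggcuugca
mmu-miR-188-5p: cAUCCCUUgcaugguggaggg
mmu-miR-188-3p: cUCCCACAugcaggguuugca
mmu-miR-362-5p: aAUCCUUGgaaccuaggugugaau
mmu-miR-362-3p: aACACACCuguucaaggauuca
mmu-miR-501-5p: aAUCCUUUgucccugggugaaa
mmu-miR-501-3p: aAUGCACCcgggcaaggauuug
mmu-miR-500-5p: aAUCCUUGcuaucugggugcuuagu
mmu-miR-500-3p: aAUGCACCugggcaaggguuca

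The 3p arms of Mir500 and Mir501 carry the same seed, AUGCACC. Counted from base 1 of the 5′ end, these arms are identical at 18 of 22 bases, and miR-501-3p differs from miR-500-3p by U9C, G18A, C21U and A22G. The 5p arms of Mir362 and Mir500 share the seed AUCCUUG and are identical at 16 of 24 bases. No other entry among the 1738 mature sequences of the RefSeq table has either of these seeds. The 5p seed of Mir501 is AUCCUUU, found in no other entry. The 5p seed of Mir188 is AUCCCUU, which is also that of miR-7061-3p, whose gene had no row under its symbol. All 4 of these 5p arms have AUCC at bases 2 to 5. This motif, chosen after the sequences had been read and looked for on the mature strand only, lies inside the seed and is found in 8 of the 1738 mature sequences, a share of 0.460%. On the 3p side, Mir188 and Mir532 share the stretch CUCCCACA, which starts at base 1 of miR-188-3p and at base 2 of miR-532-3p, so their seeds are shifted against each other. It is present in 4 of the 1738 mature sequences, a share of 0.230%.

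The likeness of the arms bears on the counts, because a read that fits several loci was put on no gene. The longest stretch that Mir500 and Mir501 share is 14 bases. For Mir532 the longest stretch shared with any other microRNA hairpin of GENCODE or RefSeq was 13 bases, for Mir188 it was 12 bases and for Mir362 it was 11 bases. None of the 5 hairpins reached 20 bases, the length at which a hairpin was marked as uncertain. The files give 1 count for a whole hairpin, so the share of the 5p and 3p arm in each count, and with it the dose of each seed, was not measured.

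The genes span 10815 bases of Clcn5 (chromosome X, 7153810 to 7319358, minus strand, mm10). From upstream to downstream they run Mir532, Mir188, Mir362, Mir501 and Mir500, all on the strand of the host. Mir532 and Mir188 are 345 bases apart, and a gap of 5942 bases separates Mir188 from Mir362. Mir362 and Mir501 are 630 bases apart, and Mir500 follows after 3468 bases. In 3 of the 5 annotated Clcn5 transcripts all of them lie within a single intron of 103648 bases, intron 3 of Clcn5-202 and Clcn5-204 and intron 2 of Clcn5-203. The other 2 transcripts do not contain the hairpins, and no transcript has an exon over a hairpin. The hairpins are 65 to 109 bases long with a GC content of 46.2% for Mir362 to 55.9% for Mir188. Their predicted minimum free energy ran from -46.9 kcal/mol for Mir501 to -28.5 kcal/mol for Mir362, although the longer entries include more flanking bases.

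Each gene of the group was counted in at least 243 reads per library. Replicate 1 held 3422622 counts on the strand of microRNA genes and replicate 2 held 4538427. Levels are counts per 1000000 of these (CPM) and are not divided by length, since a small RNA read stands for a whole mature strand. Intervals are exact Clopper-Pearson 95% intervals and cover counting error only, not variation between animals. They are too narrow where PCR copies of 1 molecule are counted as separate reads. The hepatocyte marker Mir122 took the largest part of both libraries, at 342309 and 354939 CPM.

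All 5 genes were expressed in the liver of both pups, in the order Mir532, Mir188, Mir501, Mir500 and Mir362. Mir532, whose 5p strand has been studied as a repressor of RUNX3 in gastric cancer, had 3271 counts in pup 1 and 4158 in pup 2. That was 956 CPM (interval 923 to 989) and 916 CPM (889 to 944), with a mean of 936 ± 27.9 (SD, n = 2). It stood at rank 83 of the genes in the table by mean level. This was above 73.4% of the 312 genes that reached 10 counts in each library.

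Mir188, known from work on the switch of bone marrow stromal cells between bone and fat, had 334 CPM in pup 1 and 327 CPM in pup 2, a mean of 330 ± 4.93 (SD, n = 2). Mir501, studied in muscle stem cells, had 259 CPM in pup 1 and 251 CPM in pup 2, a mean of 255 ± 5.84 (SD, n = 2). Mir500 had 201 and 204 CPM, a mean of 203 ± 2.45 (SD, n = 2). These 3 genes lay close together in the middle of the group, and their SD was at most 2.29% of the mean. Mir362, whose 5p strand has been studied as a repressor of CYLD, had 247 counts in pup 1 and 243 in pup 2. Set against the larger library of pup 2, these were 72.2 CPM (interval 63.4 to 81.8) and 53.5 CPM (47.0 to 60.7), a mean of 62.9 ± 13.2 (SD, n = 2). Mir362 was the lowest gene of the group in both pups, and its intervals in the pups did not overlap.

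**Figure D1:**
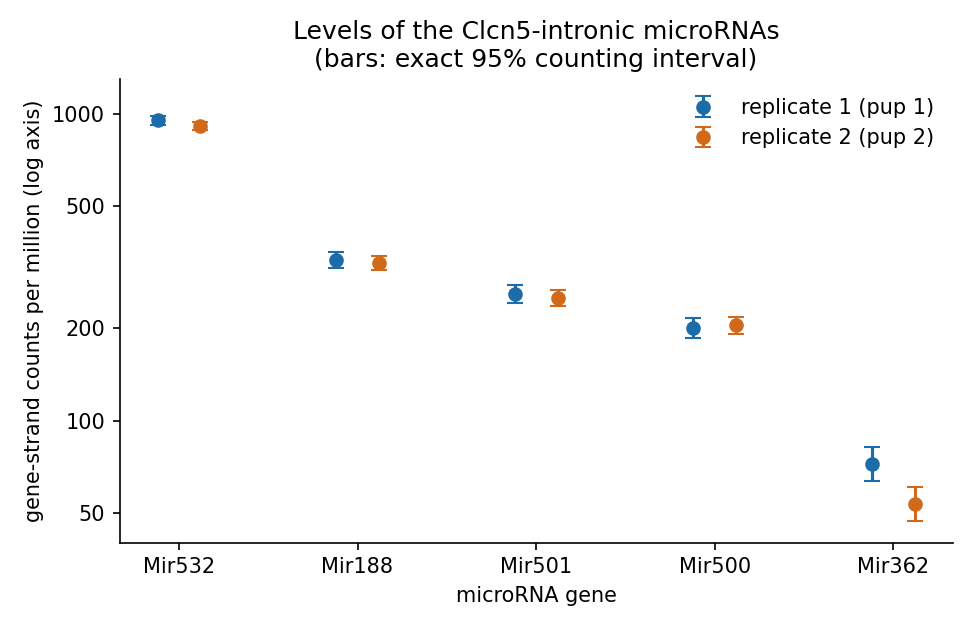
Gene-strand CPM (log axis) of the 5 Clcn5-intronic genes in each pup, with exact 95% counting intervals as bars. The pups overlap closely for Mir188, Mir501 and Mir500, and Mir362 lies lowest, at 72.2 and 53.5 CPM, with intervals that do not overlap.

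Each step of this order was larger than the spread between the pups. In all 4 pairs of neighbours in the order, and in all 10 pairs of genes, the higher gene lay above the lower gene in every comparison of pups, and their means were further apart than both SDs added together. No permutation test over 2 pups can give a two-sided p below 0.5, so no p is given. Mir532 was 2.86 times as high as Mir188 in pup 1 and 2.80 times in pup 2, a mean of 2.83 ± 0.0423. Mir188 was 1.29 ± 0.0103 times as high as Mir501, and Mir501 was 1.26 ± 0.0440 times as high as Mir500. The last step was the least even, since Mir500 was 2.79 times as high as Mir362 in pup 1 and 3.82 times in pup 2. Ligation and capture favour some small RNA sequences over others, and the ratios between genes were not corrected for this.

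Level did not fall steadily along the host intron. The most upstream gene, Mir532, was the highest, and the most downstream gene, Mir500, was 4.75-fold lower in pup 1 and 4.48-fold lower in pup 2. The closest neighbours were unequal: Mir188 starts 441 bases after Mir532 and was lower in both pups, as given above. Mir362 and Mir501, 630 bases apart, differed 3.60-fold in pup 1 and 4.69-fold in pup 2, with the downstream gene higher. With 5 positions, no correlation of level with place was computed.

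**Figure D2:**
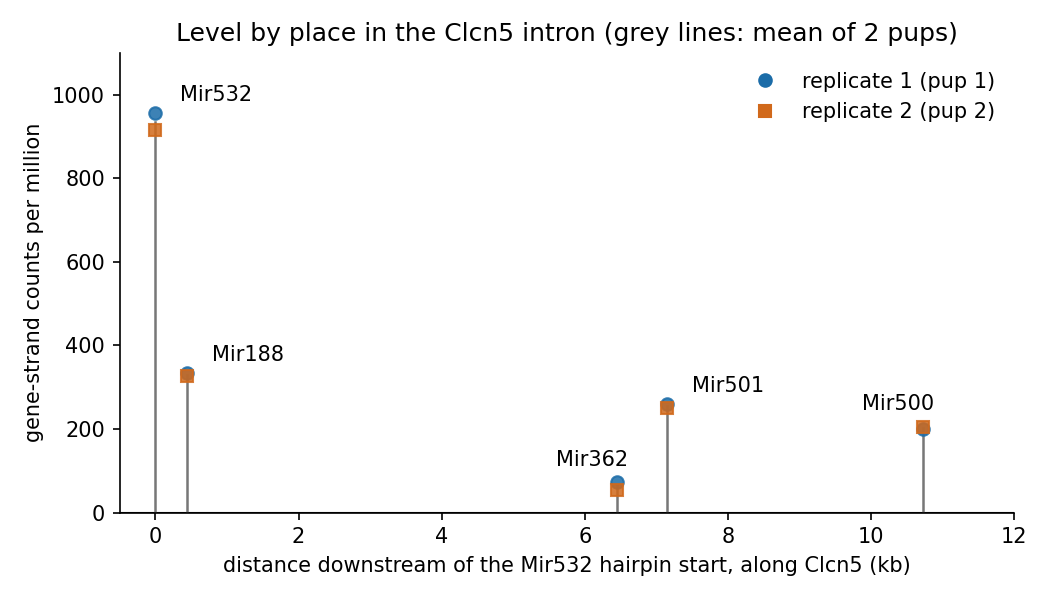
Gene-strand CPM of each gene (circles, pup 1; squares, pup 2; grey lines, mean) against its distance in kb downstream of the Mir532 hairpin start. Mir532 stands far above its neighbour Mir188, and Mir362 is the lowest although it lies between Mir188 and Mir501.

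Summed over the 5 genes, the cluster held 0.182% of microRNA counts in pup 1 (interval 0.178% to 0.187%) and 0.175% in pup 2 (0.171% to 0.179%), a mean of 0.179% ± 0.00494 (SD, n = 2). The sum was 1822 CPM in pup 1 and 1752 CPM in pup 2. Mir532 supplied 52.4% of the cluster's counts in pup 1 and 52.3% in pup 2. Mir188 supplied 18.3% and 18.7%, Mir501 14.2% and 14.3%, and Mir500 11.0% and 11.7%. For these genes the intervals of the pups overlapped. Mir362 supplied 3.96% (3.49% to 4.47%) in pup 1 and 3.06% (2.69% to 3.46%) in pup 2, where the intervals did not overlap.

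The pups were then compared gene by gene to see how far the cluster differed between litter mates. Of the single genes, Mir362 differed beyond counting error, lower in pup 2, while Mir532, Mir188, Mir501 and Mir500 did not pass the test. The log2 ratio of the summed counts, pup 2 to pup 1, was -0.06 (exact interval -0.10 to -0.01), a small difference. The interval was not adjusted and excluded 0 only narrowly. The sum includes Mir362, and its ratio was not recomputed without that gene or with another total. Without Mir122 in the total, the log2 ratio of Mir532 alone moved from -0.06 to -0.03. The exact binomial test asks whether counts in these 2 libraries differ by more than counting error, and compares the libraries, not conditions. With adjustment over all 390 genes that had at least 10 counts in the libraries together, 1 of the 5 genes was called, against 30.3% of all genes tested. The share in the cluster was therefore not above the background. The log2 ratio of pup 2 to pup 1 was -0.43 for Mir362 (exact interval -0.69 to -0.17, adjusted p = 0.00431 by the exact binomial test), a 1.35-fold difference. Genes called lower in pup 2 made up 14.4% of those tested. With the spread between the pups taken as noise, in edgeR's negative binomial exact test, the adjusted p of Mir362 was 1.00. That test called 0.513% of all genes and 0 of the 5, and its unadjusted p was 0.154 for Mir362. The pups give 1 library each, so this difference has no replicate check.

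For the other genes the interval of the ratio gives the range set by counting error alone. It leaves out other variation between the libraries, so it does not bound the difference between the pups. Mir532 had a log2 ratio of -0.06 (interval -0.13 to 0.01, adjusted p = 0.190 by the exact binomial test). Mir188 had -0.03 (-0.14 to 0.08) and Mir501 had -0.05 (-0.17 to 0.08). Mir500 was the only gene of the group with a positive ratio, at 0.02 (-0.12 to 0.17). The median log2 ratio was -0.05 over the 5 genes and 0.00 over all 390 tested. None of the 5 differed 1.5-fold, as did 0.905% of the 221 genes that reached 100 counts in each library. Among these 221 genes, which include all 5 of the cluster, 4 had a ratio as low as that of Mir362 or lower, Mir362 included.

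The ratios within pairs of cluster genes were also compared between the pups. In the 6 pairs that leave out Mir362, the ratio of a pair changed at most 1.06-fold from pup 1 to pup 2. In the 4 pairs with Mir362 it changed 1.29-fold to 1.37-fold. Mir362 was set apart for its difference between these same pups, so the smaller change in the other pairs follows from that choice. Pairs of genes outside the cluster were not computed, so whether the cluster keeps its proportions more closely than other genes was not tested.

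**Figure D3:**
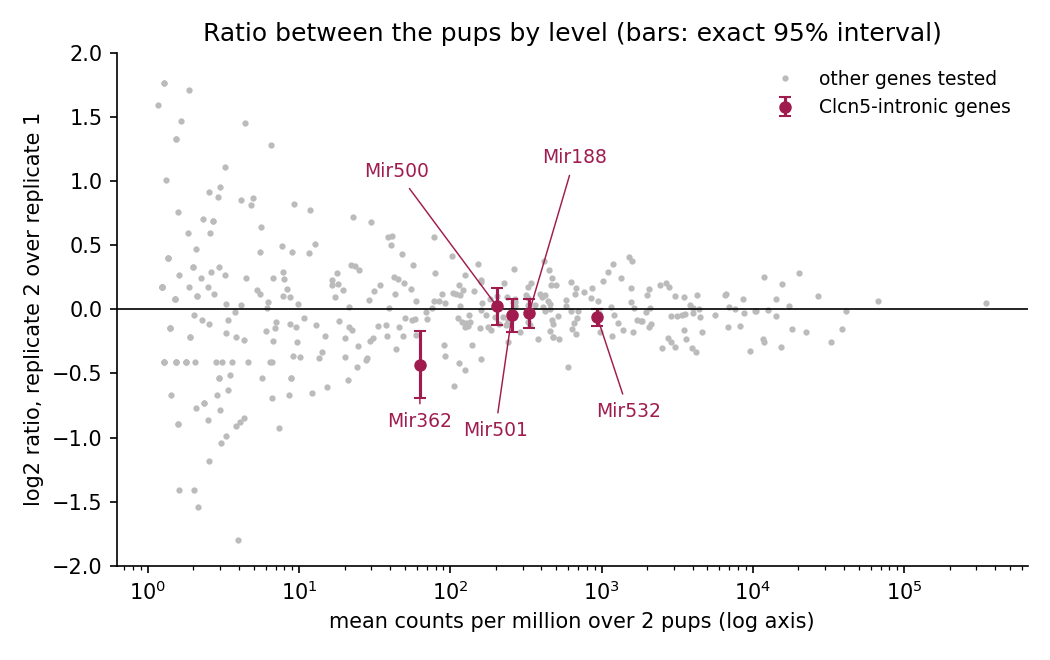
Log2 ratio of replicate 2 to replicate 1 against mean CPM (log axis) for the genes tested, with the 5 Clcn5-intronic genes in red and their exact 95% intervals as bars. Mir362 lies at -0.43 and the other 4 between -0.06 and 0.02, and 6 genes lie beyond the axis.

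In whole liver, fewer cells of a type and less RNA per cell cannot be told apart, and some markers of other cells moved between the same libraries. Skeletal muscle markers rose from 136 CPM to 1008 CPM in summed level, of which Mir206 made up 136 and 1004 CPM. Mir133b had 1 count in pup 1 and 20 in pup 2 and was also called higher in pup 2 by the exact binomial test. Mir133a-1, Mir133a-2 and Mir1a-1 were at 0 in both pups, but their mature sequences have copies at other loci and reads at several loci were put on no gene. Leukocyte markers summed to 8608 and 7901 CPM, where Mir223 was called lower, from 8567 to 7846 CPM, and Mir150 higher, from 40.9 to 55.3 CPM. Erythroid markers summed to 5309 and 5150 CPM, where Mir451a was called lower, from 3877 to 3310 CPM, Mir144 higher, from 1374 to 1786 CPM, and Mir486 was not called. Mesenchymal markers summed to 14535 and 15315 CPM, where Mir143 was called higher and Mir214 was not called. Endothelial Mir126a was called higher, from 65978 to 69174 CPM. Hepatocyte markers summed to 351139 and 363602 CPM, where Mir122 was called higher and Mir192 lower, from 8829 to 8662 CPM. Pancreas markers summed to 1947 and 2112 CPM, where Mir375 was called higher and Mir216a and Mir217 were not called. Neural Mir128-1 stood at 84.7 and 92.1 CPM and was not called. Mir142, Mir145, Mir1a-2, Mir124-1 and Mir9-1 had no row under these symbols. Mir145a had a row, at 448 and 462 CPM, and is not in the mesenchymal sum. Mir142b had 45420 and 58328 counts on the opposite strand and none on its own, and is not in the leukocyte sum. The part of these shifts in the Mir362 ratio was not tested.

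The genes share their chromosome with other microRNAs, which were used as a list of neighbours. Of 115 further microRNA genes annotated on the X chromosome, 32 were abundant enough to test between the pups. By the exact binomial test 4 of them were higher and 7 were lower in pup 2, and 21 were not called, so 34.4% were called against 30.3% of all genes. Their median log2 ratio was -0.04, beside -0.05 for the Clcn5-intronic genes. The most abundant of them was Mir322 at 14275 CPM, and 4 of the 5 Clcn5-intronic genes lay above their median of 129 CPM. The Clcn5-intronic genes made up 4.61% of all X-linked microRNA counts in pup 1 and 4.51% in pup 2.

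Other clusters of neighbouring hairpins were set beside this one for their totals and for the spread of levels within them. Mir106b, Mir93 and Mir25 lie in Mcm7 on chromosome 5, and the first and second of them carry the miR-17 seed. They summed to 4.28 ± 0.241 times the Clcn5-intronic total. The X-linked growth cluster of Mir322, Mir503, Mir351, Mir542 and the Mir450 genes summed to 9.94 ± 0.218 times that total. The X-linked Mir106a-363 cluster summed to 0.247 ± 0.0128 times the total. Its counts are uncertain, because Mir19b-2 and Mir92-2 have copies with the same mature sequence in the Mir17-92 cluster. The highest gene of the Clcn5 intron exceeded the lowest 13.2-fold in pup 1 and 17.1-fold in pup 2. In the Mcm7 cluster Mir93 exceeded Mir25 by 7.65-fold and 5.90-fold, and in the growth cluster Mir322 exceeded Mir450-1 by 903-fold and 716-fold. Mir450-1 shares a mature sequence with Mir450-2 and may be undercounted, and Mir322 exceeded Mir450b by 98.4-fold and 81.0-fold. In the Mir106a-363 cluster Mir92-2 exceeded Mir19b-2 by 22.3-fold in pup 1 and 85.5-fold in pup 2, on 21 and 8 counts of Mir19b-2. The Clcn5-intronic levels thus spread more widely than those in Mcm7 and less widely than those of the growth cluster in each pup. The wider spread than in Mcm7 rested on Mir362. Without it the lowest gene was Mir500, which Mir532 exceeded 4.75-fold in pup 1 and 4.48-fold in pup 2, less than in Mcm7. The clusters also hold 5 and 3 genes, and a ratio of highest to lowest cannot shrink as genes are added. The wider spread of the Mir106a-363 cluster rested on Mir19b-2, and without it the lowest gene was Mir18b, at 15.2 and 11.7 CPM. Mir92-2 stood at 137 and 151 CPM, so that cluster then spread less widely than the Clcn5-intronic genes with Mir362 included. With Mir362 also left out, it spread more widely than they did. No test was possible over 2 animals.

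**Figure D4:**
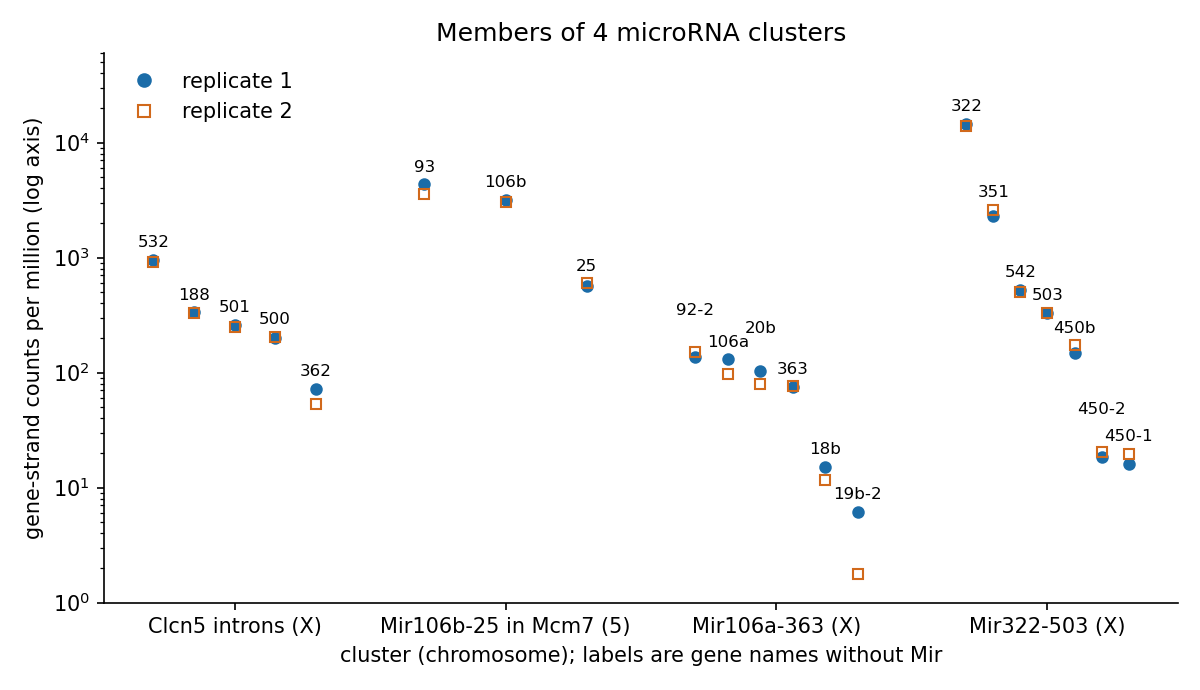
Gene-strand CPM (log axis) of every gene with a row in 4 clusters, in order of mean level within each cluster (filled circles, pup 1; open squares, pup 2). The Clcn5-intronic genes span 53.5 to 956 CPM, and their total lies between those of the Mir106a-363 and Mir106b-25 clusters.

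For the 9 mature arms listed above, 1 gene outside the cluster with a row shares a seed. The seed of miR-532-5p, which had no entry, was not searched. miR-329-3p carries ACACACC, the seed of miR-362-3p, and its gene Mir329 lies on chromosome 12 in the imprinted Dlk1-Dio3 region. Its mature strand is shown to compare with miR-362-3p above.
mmu-miR-329-3p: aACACACCcagcuaaccuuuuu
Mir329 had 637 CPM in pup 1 and 713 CPM in pup 2, against 72.2 and 53.5 CPM for Mir362. For the hairpin counts, the gene elsewhere was thus the higher one in both pups. Within the cluster, Mir500 and Mir501, which share the seed of their 3p arms, stood within 1.29-fold of each other in pup 1 and 1.23-fold in pup 2.

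Genes most like Mir532 in level over the 2 libraries, by Euclidean distance of log2(CPM + 1), were Mir361 (946 ± 16.5 CPM), also on the X chromosome, Mir185 (968 ± 14.0 CPM) and Mir341 (945 ± 29.4 CPM). By the rule used for the order above, Mir532 was not separated from any of them. Those most like the cluster total were Mirlet7f-2 (1822 ± 83.7 CPM), Mir484 (1851 ± 84.2 CPM) and Mir125a (1712 ± 68.8 CPM). A likeness over 2 libraries reflects level alone.

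No reads were counted on the strand opposite to any of the 5 hairpins in either pup. A count of 0 allows at most 0.0917% of the reads at Mir532 in pup 1 and 0.0722% in pup 2, and 1.21% and 1.23% at Mir362. Opposite-strand counts were found for 62 of the 1973 genes in the table.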

How the data were processed

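The authors deposited 1 table of raw read counts per library, with a row for each microRNA gene. The notes deposited with the tables name assembly mm10 and release M4 of the GENCODE annotation. How reads were trimmed, aligned and assigned to genes is not given in the sources used here. The 3 columns of counts have no header. They were read as unstranded, gene-strand and opposite-strand counts. With the entries for unassigned reads, each adds up to the same number of reads, which does not tell the strands apart. The column taken as gene-strand held 3422622 and 4538427 counts on genes, against 166702 and 213909 in the column taken as opposite-strand. Gene-strand counts were used. Reads at several loci (25.2% and 24.7% of all reads) and uniquely mapped reads on no gene of that strand (8.87% and 9.92% of uniquely mapped reads) stayed out of totals and tests.

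Symbols and places came from GENCODE M21, which matched 1894 of 1973 identifiers, and sequences from RefSeq. Folding used RNAfold 2.7.2. The pups were compared with a two-sided exact binomial test (scipy 1.17.1), conditional on a gene's total and the library sizes, and Benjamini-Hochberg adjusted over all genes with at least 10 counts in the libraries together. The threshold was an adjusted p of 0.05. A quasi-likelihood test needs a second group, which these samples lack. edgeR 4.0.16 (TMM, negative binomial exact test with a common dispersion) and DESeq2 1.42.0 (size factors) gave alternatives, as did other denominators, filters and single pups. Named genes were the cluster genes, genes sharing a seed, the 3 nearest in level to Mir532 and to the cluster total, and the highest and lowest gene of each comparison cluster. Marker genes, genes of the lists and the motifs are named beside their values. The genes and lists were chosen with earlier results of these data known.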

Additional observations from a re-analysis of the deposited data

How the results depend on the processing

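The order of the 5 genes held after division by hairpin length. It also held without regard to strand, which could not change it because these hairpins had no opposite-strand reads. That it held in each pup alone already follows from the comparison of gene pairs above. Of 35 alternative values of the levels, 22 lay within the SD of the pups, among them all those with TMM or DESeq2 size factors and with a pup left out, and those of Mir362 except without Mir122. The others moved with the denominator. With 2 pups, a level with 1 pup left out always lies within their SD, so those values are no check. The TMM and DESeq2 sizes were scaled to the library totals, so they could hardly move a mean over the pups and are little check either. Without Mir122 in the total, Mir532 stood at 1437 CPM, Mir188 at 507 CPM, Mir501 at 392 CPM, Mir500 at 311 CPM, Mir362 at 96.4 CPM and the cluster at 0.274%. Per 1000000 uniquely mapped reads, Mir532 stood at 848, Mir188 at 299, Mir501 at 231 and Mir500 at 184, and the cluster held 0.162%. With counts made without regard to strand, Mir532 stood at 893 CPM, Mir188 at 315 CPM, Mir501 at 244 CPM and Mir500 at 193 CPM, and the cluster held 0.171%. These shifts follow from the size of the denominator. The Mir362 log2 ratio between the pups kept its direction and its call in 6 of 7 alternatives and ranged from -0.43 to -0.40 over all of them. It was not called by edgeR's negative binomial exact test (log2 ratio -0.43, adjusted p = 1.00), while adjusted p over the alternatives ran from 0.00252 to 1.00. That test called 2 genes in all, against 118 in the binomial test, and 12 genes had an unadjusted p under 0.05 in it. The ratios of Mir532, Mir188, Mir501 and Mir500 kept their sign and were not called in any alternative run. No hairpin of the cluster shared 20 bases with another, so leaving out such genes changed nothing. A ratio between the pups needs both, so it could not be computed with a pup left out. No paired analysis was possible because the samples form 1 group. The interval for Mir362 is the widest of the 5, and its counts are the lowest.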
